A study of Arabidopsis thaliana with 8 samples.

Results

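The difference between *yucca* and wild type (WT) seedlings in their transcriptional response to brassinosteroid (BR) was measured on 8 Affymetrix ATH1 arrays, all of the 8 arrays of the experiment, 2 in each of 4 groups. WT plants were Columbia (Col-0). The labels give no ecotype for *yucca*, which the methods of the study place in a Columbia background. Light-grown seedlings, 10 d old by the labels and a day younger by the methods of the study, were kept for 2.5 h in medium with 1 μM brassinolide, the most active BR, or in the same medium alone (mock). RNA was taken from seedlings in bulk, so a smaller share of cells of a type and less RNA per cell cannot be told apart. For each of 22746 probe sets, the response was the log2 intensity after BR minus that after mock, and the difference was the *yucca* response minus the WT response. A positive value means that the response was more positive in *yucca*. It can arise from a larger rise or from a smaller fall.

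BR binds the receptor kinase BRI1 at the cell surface, and a kinase cascade then sets the activity of the transcription factor BZR1 and its relatives, which repress genes of BR biosynthesis and induce genes of cell elongation. Auxin releases auxin response factors from their Aux/IAA repressors. *yucca* plants overproduce auxin through a flavin monooxygenase. The sources used here do not give the line or how the gene is activated. The comparison asks whether raised auxin goes with another response of transcripts to BR.

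The arrays of each genotype were read as normalized separately, since sets of equal values were shared within a genotype and hardly between genotypes. Median intensities were 86.8 to 90.1 on the WT arrays and 44.7 to 46.4 on the *yucca* arrays, in arbitrary units, so levels were not compared between genotypes as deposited. A constant shift between genotypes on the log2 scale cancels in the difference of responses, but a shift that changes with intensity does not. The median SD between replicates was 0.0656 and 0.0699 on the log2 scale in WT, and 0.0879 and 0.102 in *yucca*. Responses were fitted with limma over all arrays, which left 4 degrees of freedom for the residuals. The study's criteria decided a call, namely an adjusted p (Benjamini and Hochberg) under 0.10 and a log odds of change (B) above 0. A group was taken as near background at or under the 30th percentile of its genotype, an intensity of 24.7 in WT and 15.0 in *yucca*.

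The response to BR differed between genotypes for 6 of 22746 probe sets (0.0264%). In 2 of them (0.00879%) the response was higher in *yucca*, and in 4 (0.0176%) it was lower. The rise of *XTH19* was stronger in *yucca*. *EXL4* and 3 probe sets with no gene named here (251176_at, 252265_at and 261934_at) fell in *yucca* and did not pass the criteria in WT, where the values of 252265_at and 261934_at were above 0. The fall of At5g22580 was weaker in *yucca*. None of the 6 responded in opposite directions by at least 1.5-fold in each genotype, and none was a rise that was weaker in *yucca*. No called probe set was near background in both groups of a genotype, but *XTH19* was near background in mock-treated *yucca*. Without the B criterion the same number, 6, passed, and 1768 (7.77%) had an unadjusted p under 0.05.

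**Figure D1:**
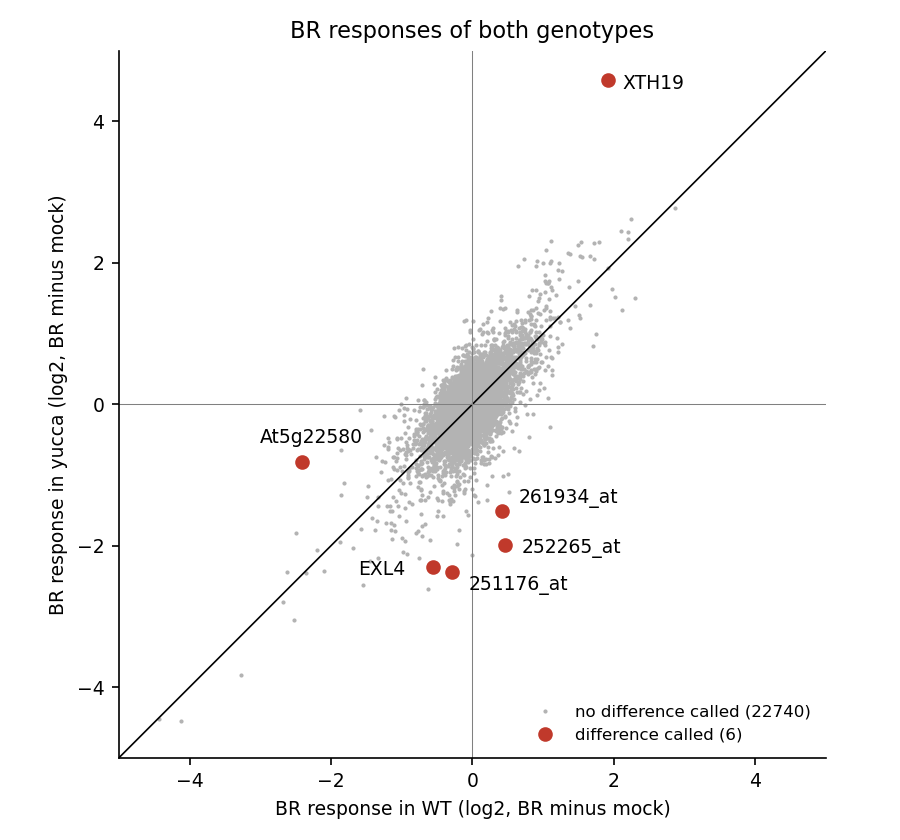
BR response in *yucca* (vertical axis, log2 of BR over mock) against that in WT (horizontal axis, same unit) for 22746 probe sets, each point a difference of group means of 2 arrays. The diagonal marks equal responses. The 6 called probe sets are red, and *XTH19* lies farthest above the diagonal, at 1.91 in WT and 4.58 in *yucca*.

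*XTH19* (At4g30290) encodes a xyloglucan endotransglucosylase/hydrolase, an enzyme that cuts and rejoins the xyloglucan chains of the cell wall. Its intensity was 149 and 122 in WT mock, 514 and 502 in WT BR, 13.1 on both *yucca* mock arrays, and 306 and 322 in *yucca* BR. BR arrays were thus well above mock arrays in each genotype, and the mock arrays of *yucca* were low. *XTH19* rose 3.77-fold in WT and 23.9-fold in *yucca*, log2 fold changes of 1.91 and 4.58. The difference was 2.67 (standard error 0.153, 95% interval 2.32 to 3.01, adjusted p = 0.000665 from limma). With *yucca* mock near background, the difference was 1.71 when 16 was added to each intensity before taking logs, and it was still called.

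*EXL4* (At5g09440) belongs to the *EXORDIUM* family of cell wall proteins, whose founding member promotes BR-dependent growth. Its intensity was 793 and 777 in WT mock and 532 and 531 in WT BR. In *yucca* it was 799 and 709 in mock and 175 and 133 in BR. The groups did not overlap in either genotype. *EXL4* fell 4.94-fold in *yucca*, a log2 fold change of −2.30. Its WT value of −0.56 did not pass the criteria in this fit, where the genotypes share the spread (adjusted p = 0.0604, with B below 0). The difference was −1.74 (standard error 0.185, 95% interval −2.16 to −1.32, adjusted p = 0.0369). The gene is named here through the study's tables, drawn up on these arrays, which list it as regulated by BR in WT.

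At5g22580 was the single called transcript with a weaker response in *yucca*. Its intensity was 502 and 434 in WT mock, 98.3 and 77.7 in WT BR, 821 and 816 in *yucca* mock, and 482 and 449.7 in *yucca* BR. It fell 5.34-fold in WT and 1.76-fold in *yucca*, log2 fold changes of −2.42 and −0.81. The groups did not overlap in either genotype. The difference was 1.60 (standard error 0.181, 95% interval 1.19 to 2.01, adjusted p = 0.0369). At 1.60 it was the smallest of the 6 called differences in size, while uncalled differences reached 2.13.

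The 3 probe sets with no gene named here passed the criteria for a fall in *yucca* and did not pass them in WT. Probe set 252265_at measured 489.9 and 300.2 in *yucca* mock and 92.9 and 101 in *yucca* BR, against 28.0 and 30.4 in WT mock and 39.3 and 41.3 in WT BR. Its log2 response was −1.98 in *yucca* and 0.46 in WT, a difference of −2.45 (standard error 0.270, adjusted p = 0.0369). The 2 *yucca* mock arrays were far apart but both above the BR arrays. Probe set 251176_at measured 314 and 248 in *yucca* mock and 53.4 and 54.8 in *yucca* BR, against 116 and 95.4 in WT mock and 91.9 and 81.1 in WT BR. Its log2 response was −2.37 in *yucca* and −0.28 in WT, a difference of −2.08 (standard error 0.197, adjusted p = 0.0254). Probe set 261934_at measured 724 and 709 in *yucca* mock and 303 and 208 in *yucca* BR, against 184 and 184 in WT mock and 243 and 249 in WT BR. Its log2 response was −1.51 in *yucca* and 0.42 in WT, a difference of −1.94 (standard error 0.216, adjusted p = 0.0369). The WT values of 252265_at and 261934_at were above 0 but did not pass the test.

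**Figure D2:**
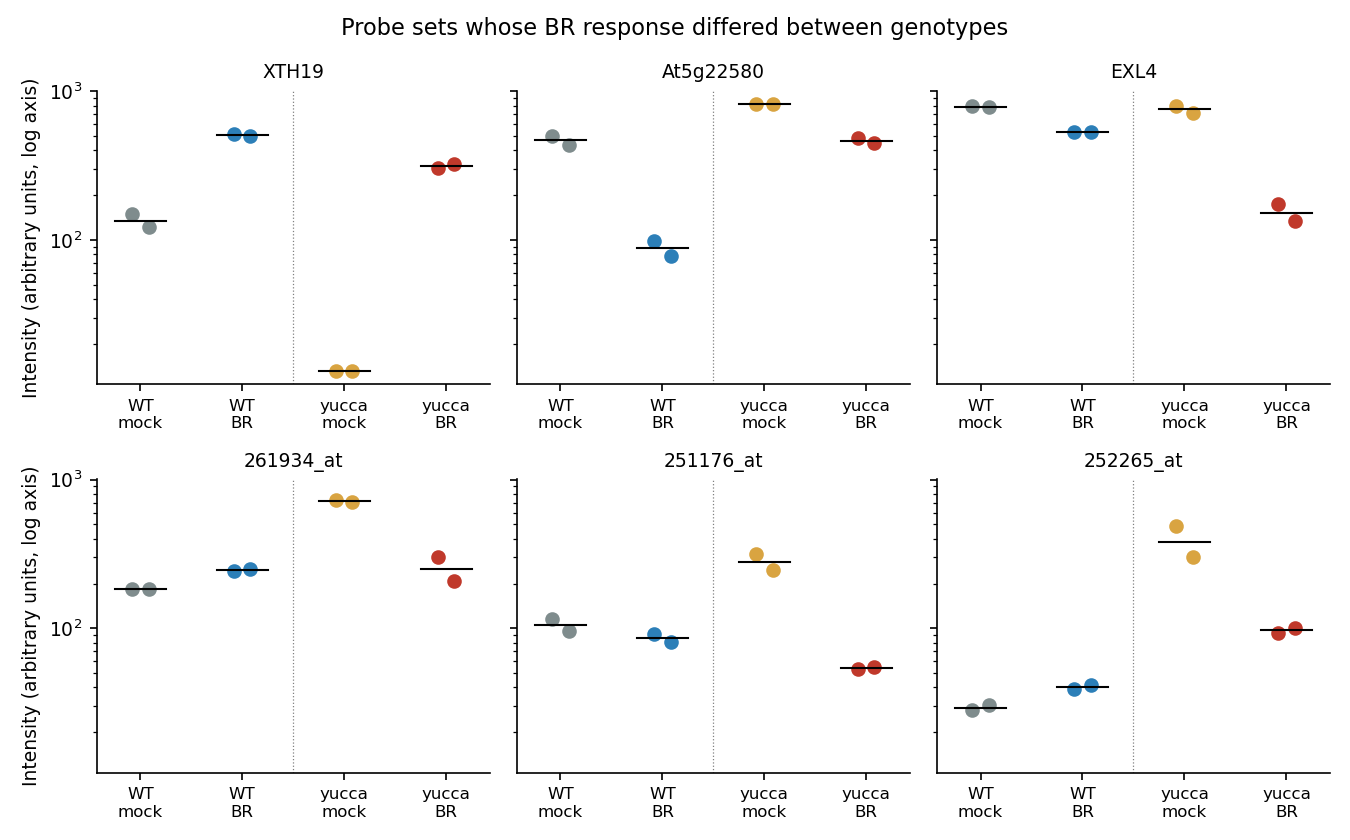
Intensity of each array (points, arbitrary units, log axis) and geometric group mean (bars) for the 6 called probe sets in WT and *yucca*, mock and BR. Levels on the 2 sides of the dotted line were read as normalized separately. *XTH19* starts at 13.1 in *yucca* mock, and the 4 probe sets with a lower response in *yucca* end well below their *yucca* mock arrays.

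The same difference can be read as the gap between genotypes after BR minus that after mock. For this the arrays were quantile-normalized together, since the genotypes were read as normalized apart. For *XTH19* the gap, *yucca* minus WT on the log2 scale, was −2.50 after mock and 0.27 after BR. The gap of 251176_at went from 2.39 after mock to 0.29 after BR. The gaps of 252265_at, from 4.58 to 2.18, and of 261934_at, from 2.93 to 1.01, shrank but remained above 0. *EXL4* went from 0.89 to −0.84. At5g22580 widened its gap, from 1.77 to 3.36. These gaps use the same arrays as the responses and are no further evidence.

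The number of calls depended on single arrays. Without WT mock replicate 1, no probe set was called. Leaving out the other WT mock array or the second WT BR array left 1 call, and leaving out the first WT BR array left 2. Leaving out *yucca* mock replicate 1 gave 14 calls, *yucca* mock replicate 2 gave 31, and *yucca* BR replicate 2 gave 5. Without *yucca* BR replicate 1 there were 146 calls, 18 higher and 128 lower in *yucca*. *XTH19* was called in 7 of the 8 fits that left out an array, and without WT mock replicate 1 it missed only the B criterion (difference 2.53, adjusted p = 0.00533). *EXL4*, At5g22580, 251176_at and 261934_at were called in 4 of the 8, and 252265_at in 3. *EXL4*, 251176_at, 252265_at and 261934_at were each lost without any of the WT arrays. Over all settings the difference of *EXL4* lay between −1.94 and −1.55, and that of At5g22580 between 1.43 and 1.77. The ranges were −2.25 to −1.83 for 251176_at, −2.80 to −2.09 for 252265_at and −2.21 to −1.67 for 261934_at, and no called difference changed sign.

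**Figure D3:**
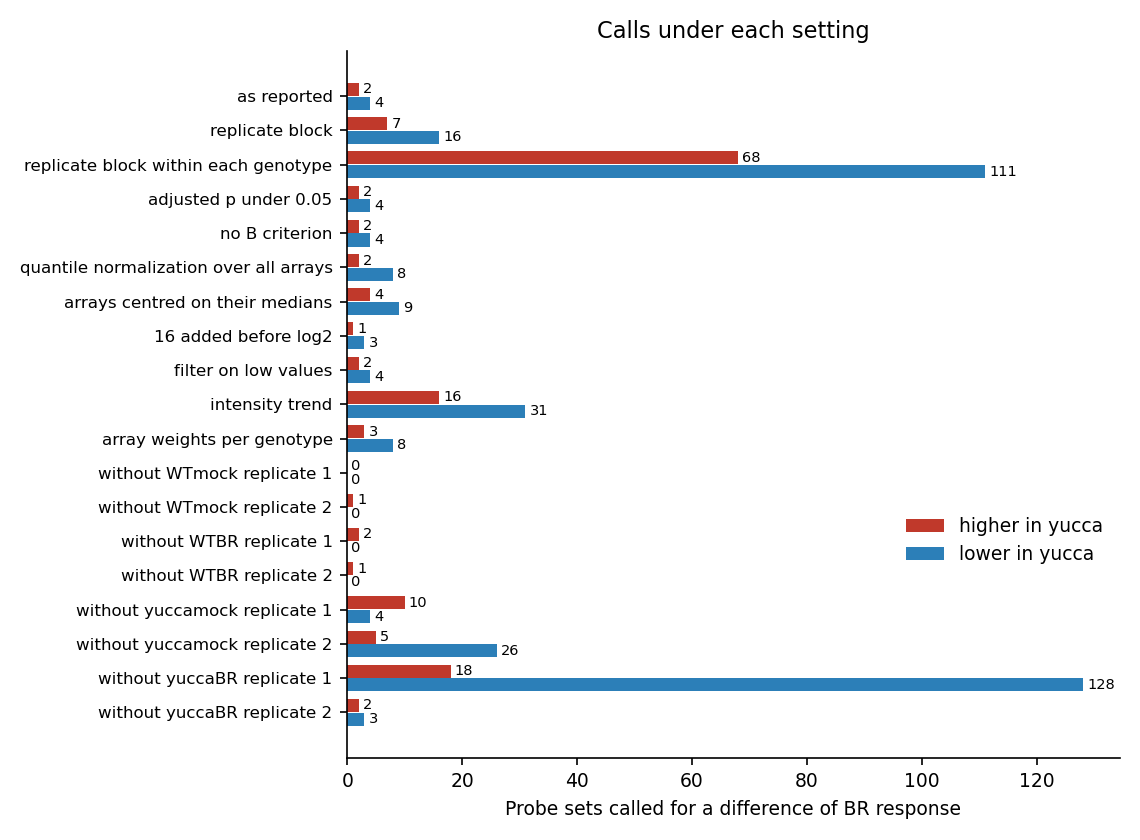
Number of probe sets called for a difference of BR response (horizontal axis) under each setting, with the response higher (red) or lower (blue) in *yucca*. The reported fit called 2 and 4, and the fit without *yucca* BR replicate 1 called 18 and 128.

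With the spread shared between genotypes, 490 transcripts were called in WT (2.15%) and 778 in *yucca* (3.42%). This order turned over when each genotype was fitted alone (342 raised and 297 lowered in WT, 228 and 184 in *yucca*) and with array weights (394 and 340 in WT, 304 and 282 in *yucca*). Some transcripts that the study's tables list as regulated by BR in WT, such as *EXL4*, were not called in WT with the shared spread. Of 275 transcripts raised by BR in WT (1.21% of all), 205 were raised in *yucca* as well, which is 74.5% of the WT list and 51.1% of the 401 raised in *yucca* (1.76%). Of 215 lowered in WT (0.945%), 128 were lowered in *yucca*, which is 59.5% of the WT list and 34.0% of the 377 lowered in *yucca* (1.66%). No transcript was raised in one genotype and lowered in the other. The responses had a Pearson r of 0.620 across all 22746 probe sets, which are not independent, and no array entered both responses. The difference had its 95% interval within 2-fold in either direction for 21874 probe sets (96.2%), and its median standard error was 0.158.

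Transcripts called in a single genotype were set against the test of the difference. Of 70 transcripts raised in WT only, the *yucca* value was above 0 for 66, and the interval of the difference was without 0 for 30. Of 87 lowered in WT only, the *yucca* value was below 0 for 82, and the interval was without 0 for 39. None of either set passed the test of the difference. Of 196 raised in *yucca* only, the WT value was above 0 for 186 and the interval was without 0 for 113, with no call. Of 249 lowered in *yucca* only, the WT value was below 0 for 223, the interval was without 0 for 183, and 4 were called, namely *EXL4* and the 3 probe sets with no gene named here. As each of these sets was selected on one of the 2 responses compared, their median differences are descriptions. They were −0.35 and 0.37 for transcripts raised or lowered in WT only, and 0.39 and −0.54 for those raised or lowered in *yucca* only.

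Shared changes were ranked by the smaller of the 2 responses, which favours genes with like responses. *SAUR9* (At4g36110), a member of the small auxin-upregulated RNA family that promotes cell expansion, had intensities of 30.2 and 24.2 in WT mock and 213 and 181 in WT BR. In *yucca* it had 68.2 and 54.9 in mock and 403 and 436 in BR. It rose by 2.86 in WT and 2.78 in *yucca* on the log2 scale, and the interval of the difference ran from −0.56 to 0.39. *EXLA2* (At4g38400), an expansin-like gene, rose by 2.20 and 2.34, with an interval from −0.29 to 0.56. *SAUR15* (At4g38850) rose by 2.11 and 2.45, with an interval from −0.15 to 0.84. The *SAUR* gene At1g29490 rose by 2.21 and 2.44, with an interval from −0.20 to 0.67, and its WT mock group was near background. The transcript annotated as At5g57785 fell most of those lowered in WT, with log2 fold changes of −4.43 and −4.45 and an interval of the difference from −0.40 to 0.36. At5g01740 fell in both genotypes, with log2 fold changes of −4.12 and −4.48 and an interval from −0.78 to 0.07. *MYB55* (At4g01680), of the MYB family of transcription factors, fell in both genotypes, and its interval, −0.88 to −0.18, did not hold 0 although the difference was not called (adjusted p = 0.417).

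Genes of BR biosynthesis carry the feedback by which BR limits its own production. All 5 named here were lowered in WT, for which the study's tables had listed them, against 0.945% of all probe sets. In *yucca* 4 were lowered, against 1.66%. *DWF4* (At3g50660), a hydroxylase of the pathway, had intensities of 172 and 192 in WT mock and 31.2 and 27.6 in WT BR. In *yucca* it had 79.9 and 62.5 in mock and 13.6 and 13.9 in BR, the latter near background. Log2 fold changes were −2.63 and −2.37, and the interval of the difference was −0.16 to 0.68. *CPD* (At5g05690) had log2 fold changes of −2.10 and −2.36, *ROT3* (At4g36380) of −0.88 and −1.12, and *BR6OX2* (At3g30180), the last oxidase of the pathway, of −3.28 and −3.82. *CYP90D1* (At3g13730) had −1.06 in WT and −0.62 in *yucca*, where it did not pass the B criterion, and the interval of the difference was −0.11 to 0.99. *BR6OX2* was near background after BR in both genotypes, and its interval was −1.06 to −0.03. With 16 added before log2 the difference was 0.00086.

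In BR signalling, none of 7 genes was called for a difference, and 1 of the 7 intervals was without 0. The receptor gene *BRI1* (At4g39400) had intensities of 1282 and 1370 in WT mock and 632 and 663 in WT BR, and of 542 and 501 in *yucca* mock and 231 and 218 in *yucca* BR. It fell by 1.03 in WT and by 1.22 in *yucca*, with an interval of the difference from −0.48 to 0.12. *BEH2* (At4g36780), a relative of *BZR1*, fell by 2.68 and 2.80, with an interval from −0.50 to 0.26. *BZR1* (At1g75080) rose 1.62-fold in WT and 2.14-fold in *yucca*, with an interval from 0.11 to 0.71 and no call (adjusted p = 0.477), and its probe set is of a kind that can match more than 1 transcript. *BRL3* (At3g13380), a receptor related to *BRI1*, passed the B criterion in neither genotype, and its intensities after BR were near background in both. Among bHLH factors linked to BR, *BEE1* (At1g18400), a positive regulator of BR response, rose by 1.21 in WT and by 0.73 in *yucca*, an uncalled difference of −0.48 (adjusted p = 0.532). Of 5 such bHLH genes, 2 differences were above 0 and 3 below 0, with a median of −0.04. The lowest, chosen after its value was seen, was that of *IBH1* (At2g43060), an inhibitor of cell elongation. *IBH1* fell in *yucca* from 328 and 258 to 103 and 78.6. In WT it had 217 and 211 after mock and 137 and 131 after BR, a log2 value of −0.67 that did not pass the B criterion. The difference was −1.02 (95% interval −1.50 to −0.54, adjusted p = 0.235).

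None of 26 *SAUR* genes was called, but 21 of the differences were above 0, against 11966 of 22746 for all probe sets. The median of the 26 was 0.49, against 0.01 for all probe sets. The interval was above 0 for 14 of the 26 and below 0 for 2, against 3.98% and 3.79% of all probe sets. In WT, 16 were raised and 1 was lowered, against 1.21% and 0.945% of all probe sets. In *yucca* 19 were raised and 4 were lowered, against 1.76% and 1.66%. Members within the family are related in sequence. At least 4 of the 26 are named through the study's tables of BR-regulated transcripts alone, drawn up on the WT response on these arrays. That count leaves out genes that the study's auxin tables list as well. The number raised in WT is thus in part set by how genes were named. Under the 18 other settings the median lay between 0.38 and 0.59.

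Single *SAUR* genes gave this in detail, and those that follow were chosen after their values were seen. At4g38860 had 338 and 270.3 in WT mock and 705 and 602 in WT BR, and 63.6 and 35.5 in *yucca* mock and 225 and 249 in *yucca* BR. Its log2 values were 1.11 in WT, which did not pass the B criterion, and 2.32 in *yucca*, a difference of 1.21 (95% interval 0.45 to 1.96, adjusted p = 0.392). At1g29460 rose in WT from 37.6 and 32.4 to 76.1 and 68.1, and in *yucca* from 12.4 and 9.63, near background, to 54.6 and 44.9. The difference was 1.13 (95% interval 0.65 to 1.62, adjusted p = 0.221). *SAUR63* (At1g29440) rose by 1.36 in WT and 2.14 in *yucca*. At4g34760 rose in *yucca* only, from 179 and 192 to 263 and 287, while in WT the mock arrays (398 and 349) and the BR arrays (364 and 335) overlapped. Of the members with a difference below 0, *SAUR36* (At2g45210) fell by 1.35 in *yucca* and had −0.67 in WT, which did not pass the B criterion. At4g12410, also below 0, fell by 0.63 in *yucca*, with intensities near background in both WT groups and in *yucca* BR. At2g37030, with a difference above 0, fell in both genotypes, by 2.50 in WT and 1.82 in *yucca*, so its difference of 0.68 was a weaker fall and not a stronger rise.

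**Figure D4:**
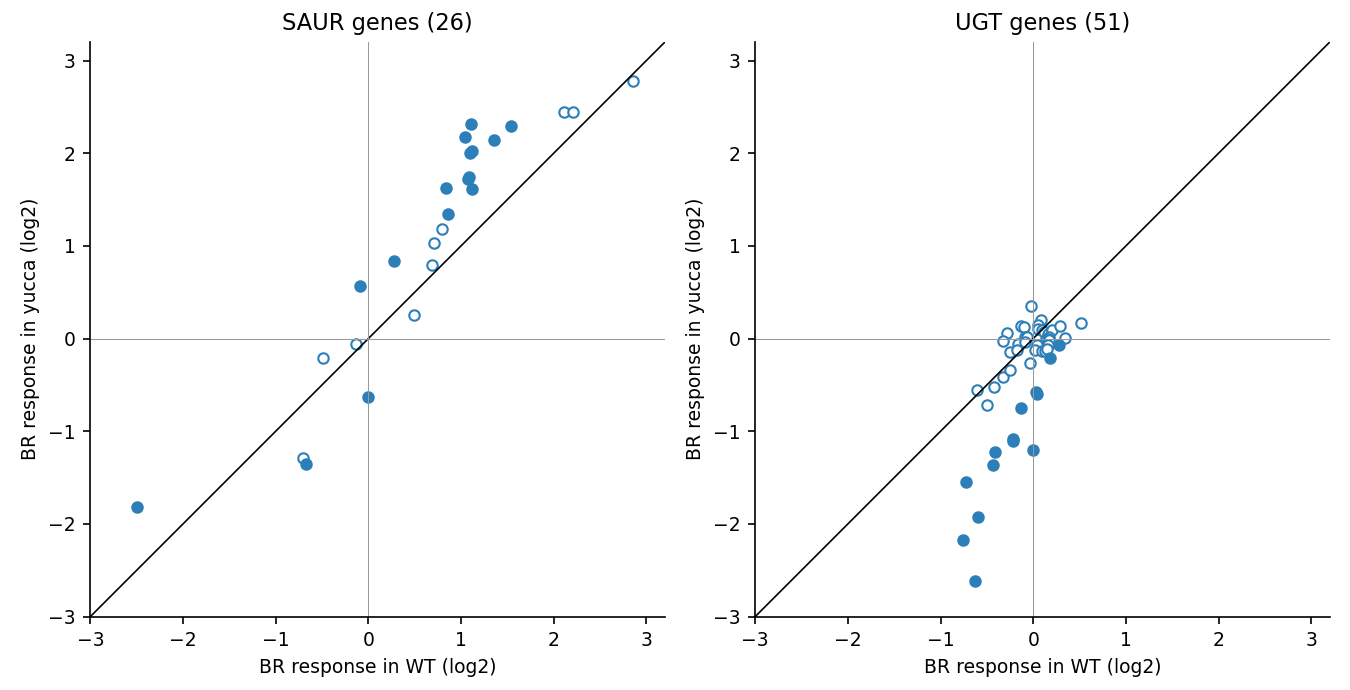
BR response in *yucca* against that in WT (both log2, BR over mock) for 26 *SAUR* genes and 51 *UGT* genes. Filled points have a 95% interval of the difference without 0, open points do not, and the diagonal marks equal responses. Most raised *SAUR* genes lie above the diagonal, and the lowered *UGT* genes lie below it.

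Other auxin-related genes had no call for a difference. Of 20 *Aux/IAA* genes, whose products repress auxin response, 14 had a difference above 0 (11966 of all 22746 probe sets did), with a median of 0.11. The interval was without 0 for 1, against 7.77% of all probe sets. *IAA19* (At3g15540) rose by 0.92 in WT and 1.29 in *yucca*, with an interval from −0.15 to 0.88, and *IAA7* (At3g23050) fell by 0.65 in each. The auxin response factor genes *ARF8* (At5g37020) and *ARF16* (At4g30080) fell by 0.67 and 0.66 in WT and by 0.65 and 0.67 in *yucca*. Among auxin carriers, *PIN3* (At1g70940) and *PIN4* (At2g01420), which export auxin, fell in both genotypes with intervals that held 0. *PIN7* (At1g23080) fell by 0.84 in WT, and its *yucca* value of −0.56 did not pass the B criterion. *LAX3* (At1g77690), an auxin importer, had 596 and 508 in WT mock and 325 and 309 in WT BR, and 313 and 282 in *yucca* mock and 98.5 and 72.4 in *yucca* BR. It fell by 0.79 in WT and 1.81 in *yucca*, a difference of −1.02 (95% interval −1.50 to −0.54, adjusted p = 0.235). Of 8 *GH3* genes, 4 differences were above 0 and 4 below 0, with a median of 0.09. The lowest, chosen after its value was seen, was that of *GH3.17* (At1g28130), an enzyme that joins auxin to amino acids. *GH3.17* fell by 1.33 and 2.17, a difference of −0.84 (95% interval −1.23 to −0.45, adjusted p = 0.235).

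Cell wall genes went both ways. Of 15 *XTH* genes, 8 were raised and 1 was lowered in each genotype, against 1.21% and 0.945% of all probe sets in WT and 1.76% and 1.66% in *yucca*, and *XTH19* was the only call. The interval was above 0 for 3 and below 0 for 3, against 3.98% and 3.79% of all probe sets. The median of 0.05 ranged from −0.02 to 0.20 under the other settings. At least 1 of the 15 is named through the study's tables of BR-regulated transcripts alone, drawn up on the WT response on these arrays. That count leaves out genes that the study's auxin tables list as well. Of the genes that follow, *XTH17*, *XTH8*, *TCH4* and *XTR6* were chosen after their values were seen. *XTH17* (At1g65310) rose by 1.49 in WT and 2.26 in *yucca*, and *XTH8* (At1g11545) by 1.07 and 1.71. *TCH4* (At5g57560), also touch-induced, rose by 1.75 in WT and 0.99 in *yucca*, and *XTR6* (At4g25810) rose 4.92-fold and 2.83-fold. *XTR6* had 213 and 163 in WT mock and 927 and 906 in WT BR, and 216 and 149 in *yucca* mock and 525 and 492 in *yucca* BR. Its difference was −0.80 (95% interval −1.37 to −0.23, adjusted p = 0.458). *XTH33* (At1g10550) rose 3.17-fold and 4.27-fold, with an interval from −0.09 to 0.96.

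The *EXORDIUM* family held the other called member of a list. Of its 6 genes, 5 had a difference below 0 (10780 of all 22746 probe sets did), and the median was −0.52. The interval lay below 0 for 3, against 3.79% of all probe sets. *PHI-1* (At1g35140) rose less in *yucca*, from 238 and 224 to 653 and 519, than in WT, from 249 and 207 to 1012 and 951. These are log2 fold changes of 1.33 and 2.11, and the difference of −0.78 was not called (adjusted p = 0.311). *EXL2* (At5g64260) fell by 0.95 in WT and 1.93 in *yucca*, a difference of −0.98 (adjusted p = 0.235). *PHI-1* was raised and *EXL2* was lowered in both genotypes, so the members with a difference below 0 did not respond in one direction. The study's tables, drawn up on the WT response on these arrays, alone name at least 4 of the 6 genes. *PHI-1* and *EXL2* were chosen after their values were seen.

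Of 17 arabinogalactan protein and extensin genes, which encode wall glycoproteins, 12 were raised in each genotype, against 1.21% of all probe sets in WT and 1.76% in *yucca*, and none was called for a difference. The difference was above 0 for 16 (11966 of all 22746 probe sets were), with a median of 0.31. The interval was above 0 for 6, against 3.98% of all probe sets. *AGP4* (At5g10430) had 1599 and 1282 in WT mock and 2659 and 2738 in WT BR, and 404 and 342 in *yucca* mock and 1390.4 and 1647 in *yucca* BR. It rose by 0.91 and 2.03, a difference of 1.11 (95% interval 0.67 to 1.55, adjusted p = 0.193). *AGP7* (At5g65390) rose by 1.04 and 1.71. The study's tables, drawn up on the WT response on these arrays, alone name at least 10 of the 17, so the number raised in WT is not independent evidence. *AGP4* and *AGP7* were chosen after their values were seen. Of 7 pectin-related genes, 5 differences were above 0 and 2 below 0, with a median of 0.03. The highest, chosen after its value was seen, was that of *ATPMEPCRB* (At4g02330), a pectin methylesterase. *ATPMEPCRB* rose in *yucca* from 50.9 and 35.1 to 184.5 and 167. In WT it had 25.8 and 18.6 after mock, near background, and 37.8 and 35.2 after BR, and the difference was 1.32 (95% interval 0.71 to 1.94, adjusted p = 0.235).

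Family 1 glycosyltransferases (*UGT*) attach sugars to hormones and other small molecules. None of 51 *UGT* genes was called in WT, 7 were lowered in *yucca* (1.66% of all probe sets were), and none was called for the difference. The interval lay below 0 for 14 and above 0 for none, against 3.79% and 3.98% of all probe sets. The median was −0.14. No member was counted as named through the study's tables of BR-regulated transcripts alone. Over the 18 other settings the median lay between −0.19 and −0.10.

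*UGT73B4* (At2g15490) and *UGT73B5* (At2g15480), which act on flavonols and are known from defence, had the largest and the third largest negative differences of the family, and they and those that follow were chosen after their values were seen. *UGT73B4* had 34.5 and 33.2 in WT mock and 21.0 and 22.8 in WT BR, the latter near background, and fell in *yucca* from 94.5 and 72.8 to 17.4 and 10.5, near background. The difference was −1.99 (95% interval −2.68 to −1.30, adjusted p = 0.159). *UGT73B5* had 58.8 and 82.5 in WT mock and 44.2 and 47.9 in WT BR, and fell in *yucca* from 718 and 681 to 244 and 139. The difference was −1.32 (95% interval −2.09 to −0.56, adjusted p = 0.335). *GT72B1* (At4g01070), which conjugates foreign phenols, fell in *yucca* from 451 and 394 to 119 and 73.9, with 286 and 246 in WT mock and 175 and 141 in WT BR. The difference was −1.41 (95% interval −2.08 to −0.75, adjusted p = 0.235). *UGT76E12* (At3g46660), *UGT87A2* (At2g30140), *UGT85A2* (At1g22360) and *UGT76E11* (At3g46670) fell in *yucca*, with log2 fold changes of −1.20, −1.36, −1.55 and −1.22, while their WT values were 0.00, −0.43, −0.73 and −0.41. *UGT76E12* was near background in both WT groups and in *yucca* BR.

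In each of these 7 *UGT* genes *yucca* BR replicate 1 read higher than replicate 2, and both were below the *yucca* mock arrays. Without replicate 1, the fit called 146 of all 22746 probe sets, and among them were *UGT73B4*, *GT72B1*, *UGT73B5*, *UGT76E12*, *UGT87A2* and *UGT76E11*, with differences of −2.36, −1.76, −1.73, −1.33, −1.26 and −0.97. That fit leaves 1 *yucca* BR array, which is assumed to vary like the other groups, and the genes were chosen with their values known. After quantile normalization over all arrays, the median gap of the 7 between *yucca* and WT was 1.68 on the log2 scale after mock and 0.24 after BR. They were selected for a fall in *yucca*, and over all 51 genes the median gap was 0.14 after mock and 0.017 after BR.

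Aliphatic glucosinolates are sulphur-rich defence compounds made from methionine. Of 8 genes of their biosynthesis, 4 were lowered in WT (0.945% of all probe sets were) and none in *yucca* (1.66%), all 8 differences were above 0, and their median was 0.58. The study's tables, drawn up on the WT response on these arrays, alone name at least 6 of the 8, so the smaller response in *yucca* is not independent evidence, and none was called for the difference. *IPMI2* (At2g43100) fell in WT from 253 and 231 to 118 and 94.6, and in *yucca* had 202 and 159.9 after mock and 116 and 119 after BR. Its *yucca* log2 value of −0.61 missed only the B criterion. Its difference was 0.58 (95% interval 0.14 to 1.03, adjusted p = 0.503). *MAM1* (At5g23010), of the chain elongation step, had 701 and 727 in WT mock and 354 and 283 in WT BR, and in *yucca* 494 and 351 in mock and 339 and 245 in BR. Its difference was 0.64 with an interval from 0.01 to 1.27. *SOT17* (At1g18590), a sulfotransferase, fell by 0.96 in WT and had −0.40 in *yucca*. *IPMI2*, *MAM1* and *SOT17* were chosen after their values were seen. *SOT18* (At1g74090), also called in WT, had like values of −0.70 in WT and −0.63 in *yucca*, a difference of 0.06. *AOP3* (At4g03050), near background in both genotypes, had a difference of 0.007. A-type response regulators of cytokinin signalling had 3 of 5 lowered in WT (0.945% of all probe sets were) and none in *yucca* (1.66%), and 5 of 5 differences were above 0 (median 0.41). The same tables alone name at least 3 of the 5, and 2 of the 5 were near background in *yucca*. *ARR6* (At5g62920) fell in WT from 111 and 104 to 74.0 and 70.3, and had 18.5 and 18.1 in *yucca* mock and 15.6 and 16.8 in *yucca* BR, close to the background level of 15.0.

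**Figure D5:**
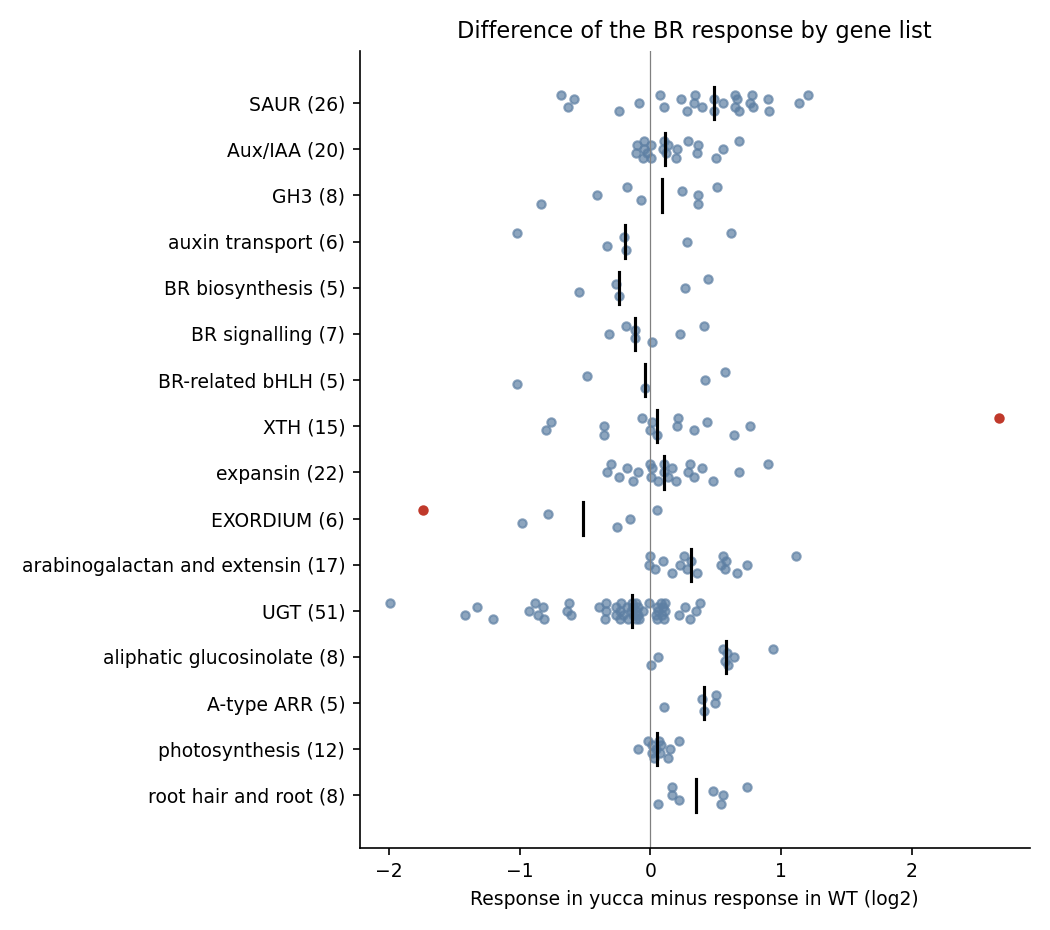
Difference of the BR response, *yucca* minus WT (horizontal axis, log2), for the members of 16 gene lists. Each point is a gene, the 2 called members (*XTH19* and *EXL4*) are red, black bars are list medians, and the number of genes stands behind each name. Medians were 0.49 for *SAUR*, −0.14 for *UGT* and 0.05 for photosynthesis genes.

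Opposite responses were rare. Among all probe sets, 2 had responses of at least 1.5-fold in opposite directions, both above 0 in WT and below 0 in *yucca*. With the spread shared between genotypes, neither passed a test in WT, in *yucca* or for the difference. The study's tables list both as regulated by BR in WT. The heat shock chaperone gene *HSP70* (At3g12580) had 245 and 256 in WT mock and 359 and 399 in WT BR, and 701 and 631 in *yucca* mock and 582 and 321 in *yucca* BR. The *yucca* BR arrays were far apart, and the difference of −1.22 had an interval from −1.93 to −0.50 (adjusted p = 0.349). At1g05575 had 136 and 164 in WT mock and 238 and 233 in WT BR, and 631 and 530 in *yucca* mock and 526 and 253 in *yucca* BR, a difference of −1.32 (adjusted p = 0.429). *GA2OX6* (At1g02400), which inactivates gibberellin, came close, with 114 and 112 in WT mock and 227 and 171 in WT BR, and 475 and 363 in *yucca* mock and 325 and 280.3 in *yucca* BR. Its log2 values of 0.80 and −0.46 passed the criteria in neither genotype, and the difference was −1.26 (95% interval −1.79 to −0.74, adjusted p = 0.210).

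A few other single genes had large differences that were not called, and were chosen after their values were seen. At4g24110 had 53.5 and 50.8 in WT mock and 57.2 and 47.5 in WT BR, which overlap, and fell in *yucca* from 85.6 and 48.7 to 18.4 and 11.8. The *yucca* BR group was near background (15.0). Its difference was −2.13 (standard error 0.377, adjusted p = 0.193). *SUFE2* (At1g67810), an activator of sulphur transfer for iron-sulphur clusters, fell in *yucca* from 378 and 311 to 192 and 150.4, with 106 and 101 in WT mock and 142 and 137 in WT BR. Its difference of −1.45 came closest to the threshold of these genes (adjusted p = 0.110). *SUFE2* was called after quantile normalization or median centring, and with a replicate block, an intensity trend or array weights. It was not called with 16 added before log2 or with a filter on low values. *MAPKKK19* (At5g67080), a protein kinase gene, rose in WT from 24.2 and 23.0, near background, to 49.9 and 51.5, while in *yucca* the mock (30.1 and 20.1) and BR arrays (23.2 and 16.6) overlapped. Its difference was −1.43 (adjusted p = 0.235). In the other direction, At1g75900 rose in *yucca* from 41.2 and 45.9 to 91.8 and 105, with overlapping WT arrays (71.8 and 55.7 in mock, 63.7 and 63.1 in BR) and a difference of 1.17 (adjusted p = 0.166). At1g29660 rose by 0.90 in WT and 1.96 in *yucca*, a difference of 1.05 (adjusted p = 0.189).

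Light-related genes are named by the study as well. *PHYE* (At4g18130), a phytochrome gene, fell by 0.61 in WT and had −0.51 in *yucca*, and *PHOT1* (At3g45780), a blue light receptor gene, fell by 0.71 and had −0.48, both with intervals of the difference that held 0. *DRT100* (At3g12610) had 1280.5 and 1117 in WT mock and 1887 and 1834 in WT BR, and rose in *yucca* from 354 and 309 to 764 and 914. Its difference was 0.70 (95% interval 0.31 to 1.09, adjusted p = 0.317). *PKS4* (At5g04190) rose by 1.14 in *yucca*, and its WT value of 0.59 did not pass the test.

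Both groups were at or under the background level in 1 genotype for 1600 probe sets, and 14 of these (0.875%) had a difference of 2-fold or more. Of 15358 with a group above it in each genotype, 70 (0.456%) had such a difference, and the 6 calls were among them. All 12 photosynthesis genes had intervals of the difference within 2-fold. All 8 root and root hair genes had differences above 0 (median 0.35), as did 11966 of all 22746 probe sets, with no interval without 0. After quantile normalization over all arrays the same 8 were lower in *yucca* than in WT after mock, with gaps from −2.57 to −0.04 on the log2 scale, and their part in the differences of other genes was not tested.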

How the data were processed

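Total RNA of seedlings was hybridized to 8 Affymetrix ATH1 arrays. The authors processed them with rma, and the deposited values are intensities in arbitrary units on the linear scale, 1 per probe set and array. Sets of equal values were shared between arrays of a genotype and hardly between genotypes, which is how the separate normalization was read. Versions of the authors' tools are not given in the sources used here. Control probe sets (64 of 22810) were left out, and log2 intensities of 22746 entered a linear model in limma 3.58.1 under R 4.3.3 (a mean for each of 4 groups, empirical Bayes with an assumed proportion of 0.01). The contrast of the responses was tested over all probe sets, with intervals at 95%. The fit was tested on simulated data with independent errors and the same spread in both genotypes. Such data do not cover the larger spread of *yucca* or the correlated deviations of its replicates.

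Of the probe sets, 13436 were named through the platform annotation with a single locus, 485 through the tables of the paper alone, and 8245 have no gene named here. Names were the same in 436 of 442 probe sets with both. The members and lists were chosen with earlier results of these data known. Named genes are called members of each class and list, the 4 largest shared rises and falls among probe sets with a locus field in the annotation (At5g57785, which has none, was added after its values were seen), genes that the paper names, and others chosen after their values were seen. The last hold also genes whose paragraph does not say so, such as *BZR1*, *ARR6* and *GA2OX6*. Replicates are separate biological samples according to the paper, and 2 arrays per group limit the precision. Alternatives were other normalizations, thresholds, filters, a pseudocount, spread models, a replicate block and leaving out each array. A block within each genotype was added after seeing the data. Promoter sequences were not used here, so the planned motif counts were not run.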

Additional observations from a re-analysis of the deposited data

Results flagged for a closer look

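The BR response differed between WT and *yucca* by the test of the difference itself for 6 probe sets. The log2 response in *yucca* minus that in WT was 2.67 for *XTH19*, −2.45 for 252265_at, −2.08 for 251176_at, −1.94 for 261934_at, −1.74 for *EXL4* and 1.60 for At5g22580. With 2 arrays in each group, no single array could be tested as an outlier within its group.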

How the results depend on the processing

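All 6 calls were kept after quantile normalization, median centring and a filter on low values, with an intensity trend, array weights and a replicate block, at a threshold of 0.05 and without B, and 3 of 6 with 16 added before log2. Counts with the response higher and lower in *yucca* were 7 and 16 with a replicate block, 2 and 8 after quantile normalization, 4 and 9 after median centring, 1 and 3 with 16 added, 16 and 31 with an intensity trend, and 3 and 8 with array weights. Of these calls, stronger and weaker responses numbered 21 and 2 with the block, 38 and 3 with the trend, and 11 and 2 after centring. They numbered 9 and 1 after quantile normalization, 10 and 1 with weights, and 4 and 0 with 16 added. List members called were 7 with the block and 7 with the trend, against 2. The cause of these shifts was not tested.

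Leaving out each array gave 0 to 18 calls higher and 0 to 128 lower in *yucca*, with 0 to 128 stronger, 0 to 10 weaker and 0 to 3 opposite responses and 0 to 28 list members. Transcripts raised and lowered numbered 130 to 310 and 88 to 245 in WT, 277 to 403 and 231 to 421 in *yucca*, and 106 to 218 and 69 to 130 in both. Without the B criterion they were 508 and 457 in WT, 1038 and 1056 in *yucca*, and 400 and 298 in both. Array weights gave 394 and 340 in WT and 304 and 282 in *yucca*, and fits of each genotype alone gave 342 and 297 in WT and 228 and 184 in *yucca*, so that both turned the order of 490 in WT and 778 in *yucca*. At a 40th percentile, 1 called probe set was near background in a genotype, against 0.

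The sources used here do not say whether replicate numbers pair the arrays. Deviations of equally numbered arrays correlated at 0.225 within WT and 0.407 within *yucca*, and at −0.124 to −0.072 between genotypes. A replicate block within each genotype, added after seeing the data, called 68 higher and 111 lower, with 133 stronger and 22 weaker responses and 29 list members. These 179 calls included the 6 reported.

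Some named differences changed sign. They were −0.0074 for *DWF4* and 0.021 for *SAUR9* after quantile normalization, and −0.0031 for *ARF8* and −0.016 for *IAA7* after median centring. With 16 added they were 0.42 for *BEH2*, 0.19 for *SAUR9*, 0.052 for *ARF16*, 0.00086 for *BR6OX2*, 0.022 for *BRL3* and 0.047 for *ROT3*. Leaving out each array in turn, the ranges were −0.089 to 0.124 for *ARF8*, −0.173 to 0.149 for *ARF16*, −0.356 to 0.125 for *BRL3*, −0.070 to 0.080 for *IAA7*, −0.244 to 0.076 for *SAUR9*, −0.052 to 0.255 for *PHYE*, −0.037 to 0.306 for *EXLA2* and −0.274 to 0.033 for *BEH2*. None of these differences was called in the reported fit.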
